A study of Mus musculus with 28 samples.

Results

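Crushing the optic nerve of mice given RGFP966 was followed, 7 days later, by lower levels of retinal ganglion cell transcripts and by a rise of injury, glial, microglial, complement and interferon-linked transcripts in the retina of that eye. The comparison set 7 crushed against 7 uncrushed retinas, both eyes of 7 mice (3 females and 4 males), which are 14 of the 28 labelled samples of the series and 14 of the 26 libraries used here. The members were chosen by their labels: every library of a mouse treated with RGFP966, split by the state of the nerve. Every mouse had its right optic nerve crushed and its left one spared, followed by daily intraperitoneal injections for 7 days, either of RGFP966 at 10 mg/kg or of vehicle. The 12 vehicle libraries used, both eyes of 6 mice (2 females and 4 males), serve below as a second set of crushed and uncrushed retinas. The sources used here do not give the strain, age or genotype of the mice. Crush was always on the right, so crush and side of the body cannot be told apart, and the uncrushed eye belonged to an animal that was itself injured and dosed.

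Retinal ganglion cells are the neurons whose axons form the optic nerve. A crush severs those axons behind the eye, and in mice most of the injured cells then lose the expression of their identity genes and die over the following weeks. Müller glia, astrocytes and microglia of the retina respond to the same injury. RGFP966 is a benzamide inhibitor of histone deacetylase 3 (HDAC3), an enzyme that removes acetyl groups from histones within corepressor complexes and that has been linked to the silencing of genes in injured ganglion cells.

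Polyadenylated RNA was measured in bulk, and the values are normalized counts as deposited by the authors. The library totals of the 14 retinas ran from 17700000 to 20000000 (median 18800000), with an estimated 16000000 to 21800000 reads behind them and 19176 to 20043 genes above 0. Defining markers of retina were present in all 14 libraries. Nrl, a rod transcription factor, lay at 42984 to 52022 (median 48293) in uncrushed eyes, Opn1mw, a cone opsin, at 1346 to 2454 (median 1811), Grm6 of bipolar cells at 2942 to 4036 (median 3898), Rlbp1 of Müller glia at 7477 to 8257 (median 7932), Tfap2b of amacrine cells at 960.1 to 1509 (median 1218) and Rbpms of ganglion cells at 310.1 to 529 (median 457). On a principal component analysis of all 26 libraries, the second component (15.2% of the variance) held every crushed eye above 0 and every uncrushed eye below 0. The first component (17.5%) did not follow crush or treatment. Every female library lay above 0 on it, while male libraries lay on both sides, most of them below 0. Crushed Male.C lay at -52.2 and uncrushed Male.B at -38.9 on it. The uncrushed Male.B retina of the vehicle mice lay at -40.1 and was kept in all fits. Uncrushed Male.A, another library apart, held lens transcripts summing to 76976, against 540 to 1511 in the other 6 uncrushed RGFP966 retinas. For the lists below, the count without these 3 libraries is given where fewer members passed. For uncrushed Female.A the free-text description speaks of a crush while title and condition do not; its place on the second component was -24.0, among the uncrushed eyes.

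Of 15773 genes tested, 737 (4.67%) differed between crushed and uncrushed eyes of RGFP966 mice at an adjusted p under 0.05 (limma, Benjamini-Hochberg over all genes). Of these, 527 (3.34% of the genes tested) were higher and 210 (1.33%) were lower after crush. At an unadjusted p under 0.05, 1286 genes (8.15%) were higher and 1095 (6.94%) lower, the shares against which the unadjusted counts of the lists below are to be read. The rises were larger than the falls: the median log2 change was 0.91 among the higher genes and -0.50 among the lower genes, against -0.009 over all genes tested. At least 2-fold changes were seen in 234 higher and 44 lower genes, and at least 4-fold changes in 61 and 11. With all libraries rescaled to the same total, the higher share of the called genes rose from 71.5% to 85.4%, with 755 higher and 129 lower. Without the 3 libraries that stood apart, 422 genes were higher and 152 lower, and 527 of these 574 were among the 737.

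The called genes were found from the same 7 mice, so their direction within each mouse is a description. Among the 527 higher genes, 420 rose within all 7 mice and 106 within 6; among the 210 lower genes, 161 fell within all 7 mice and 49 within 6. Over all genes tested, 618 (3.92%) rose and 402 (2.55%) fell within all 7 mice. The values of the 7 crushed eyes lay wholly above those of the 7 uncrushed eyes for 239 of the higher genes and wholly below for 75 of the lower genes; over all genes tested such separation was found for 1.56% upward and 0.533% downward. The median within-mouse change of the higher genes ran from 0.70 in Female.A to 1.09 in Male.B on the log2 scale, and that of the lower genes from -0.39 in Female.B to -0.57 in Male.D.

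**Figure D1:**
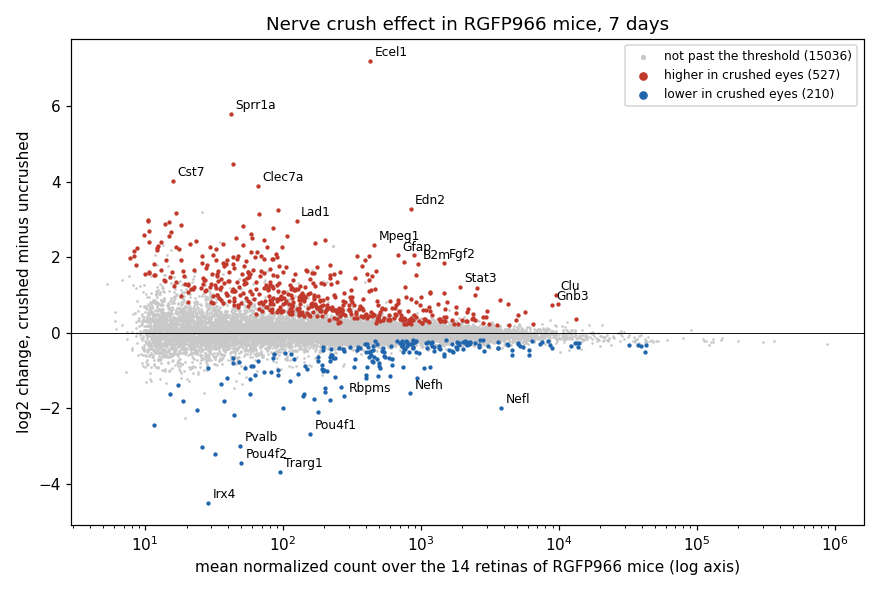
Crush effect of each of the 15773 genes tested, with the mean normalized count over the 14 RGFP966 retinas on a log axis (x) and the log2 change, crushed minus uncrushed (y). The 527 higher genes (red) reach 7.20 (Ecel1) and the 210 lower genes (blue) reach -4.51 (Irx4), while the other genes (grey) lie around 0.

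Ganglion cell transcription factors were among the steepest falls. Of 28 tested, 7 fell and 0 rose (13 had an unadjusted p under 0.05, 11 of them downward), with a list median of -0.24. Pou4f1 (Brn3a, chr14:104461676-104467999 on GRCm38), a POU-domain factor of most ganglion cells, lay at 142 to 394 (median 285) in uncrushed and at 12.7 to 70.1 (median 46.3) in crushed eyes. The groups did not overlap, and the log2 change was -2.69 ± 0.33 (SE, n = 7 and 7, adjusted p = 1.6e-06). Pou4f2 (Brn3b), needed for ganglion cell differentiation, lay at 53.2 to 126 (median 91.8) in uncrushed and at 3.01 to 18.8 (median 6.51) in crushed eyes, again without overlap, a log2 change of -3.45 ± 0.29 (adjusted p = 3.4e-09). Irx4, an Iroquois homeobox factor, lay at 28.3 to 79.0 (median 51.9) in uncrushed and at 0 to 4.17 (median 1.16) in crushed eyes, with a log2 change of -4.51 ± 0.38 (adjusted p = 3.5e-09). Its relative Irx2 fell by 3.04 on the log2 scale, and Isl2 and Pou4f3 also fell. Members that mark single ganglion cell types did not all follow: Tbr1 was at 0.24 ± 0.29 (adjusted p = 0.79) and Eomes at -0.90 ± 0.27 (adjusted p = 0.054). In bulk retina, fewer ganglion cells and less RNA per ganglion cell cannot be told apart.

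Of 30 pan-ganglion-cell and synaptic genes tested, 15 fell (14 without the 3 libraries that stood apart), with 1 rise and a median of -0.68. The RNA-binding protein gene Rbpms, a standard count marker of ganglion cells, lay at 310.1 to 529 (median 457) in uncrushed and at 95.1 to 176 (median 124) in crushed eyes, with no overlap and a log2 change of -1.69 ± 0.16 (adjusted p = 3.3e-08). Its paralog Rbpms2 changed by -1.68 ± 0.20. The calcium-binding protein gene Pvalb lay at 58.1 to 112 (median 96.4) in uncrushed and at 6.92 to 19.2 (median 9.61) in crushed eyes, the crushed eye of Male.D being the highest, a log2 change of -3.01 ± 0.23 (adjusted p = 5.6e-10). Gamma-synuclein (Sncg), abundant in ganglion cell bodies and axons, lay at 255 to 404 (median 363) in uncrushed and at 76.6 to 118 (median 104) in crushed eyes and was lower in the crushed eye of every mouse (-1.79 ± 0.17, adjusted p = 1.6e-08). Nrn1, a neurite growth protein, changed by -2.12 ± 0.26, and Nell2, a secreted neuronal glycoprotein, by -1.75 ± 0.24; the groups overlapped for Nell2 and not for Nrn1. The surface glycoprotein gene Thy1 changed by -0.93 ± 0.11 (adjusted p = 1.8e-06). The single rise was Spp1 (osteopontin), which is made both by alpha ganglion cells and by activated microglia and is also in the activated microglia list; it changed by 1.42 ± 0.22 (adjusted p = 7.3e-05).

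Neurofilament transcripts, which encode the intermediate filaments of large axons, fell while other axonal cytoskeleton genes mostly did not pass the test. The list had 7 falls and 1 rise among 28 tested, with a median of -0.07. Nefl (chr14:68083863-68089095), the light chain, lay at 5088 to 7863 (median 5548) in uncrushed and 1157 to 2407 (median 1378) in crushed eyes. No crushed eye reached the lowest uncrushed eye, and the log2 change was -1.99 ± 0.13 (adjusted p = 4.5e-11), with within-mouse changes of -2.51 to -1.37. The heavy chain Nefh lay at 1078 to 1723 (median 1102) in uncrushed and at 348 to 544 (median 391) in crushed eyes, a log2 change of -1.60 ± 0.13 (adjusted p = 8.4e-10), and the medium chain Nefm changed by -1.15 ± 0.23. Sptbn4, the spectrin of the axon initial segment, changed by -0.57 ± 0.10. The rise was Tubb2b, a tubulin of growing neurons, at 0.65 ± 0.11 (adjusted p = 0.00014). Among 31 axonal ion channel genes, 3 fell and 0 rose (10 were lower and 0 higher at an unadjusted p under 0.05): Scn4b, a sodium channel beta subunit, by 3.21 on the log2 scale, Kcnip4, a potassium channel partner, by 0.76, and Scn1a, a sodium channel alpha subunit, by 0.69. Scn1a missed the threshold without the 3 libraries that stood apart (adjusted p = 0.073), which left 2 falls.

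**Figure D2:**
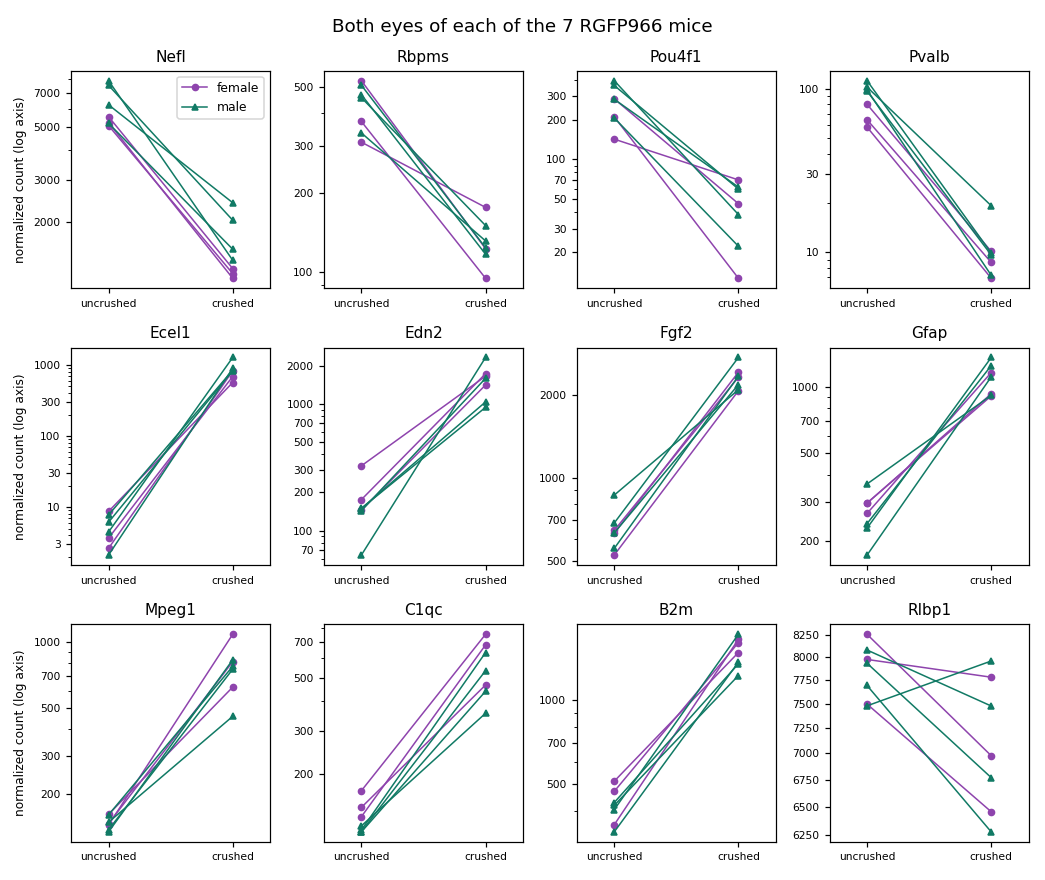
Normalized counts (log axis) of 12 genes in the uncrushed and crushed eye of each of the 7 RGFP966 mice; each line joins the eyes of 1 mouse, purple circles for females and green triangles for males, and each panel has its own range. The first 11 genes moved the same way in all 7 mice, and Rlbp1 was lower in the crushed eye of 6 of 7 without passing the test.

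Transcripts of injured neurons and axon regeneration rose. Of 30 tested members 10 rose and 0 fell (13 were higher and 1 lower at an unadjusted p under 0.05), with a median of 0.35; without the 3 libraries that stood apart 9 rose. Ecel1 (chr1:87147655-87156521), a membrane metalloprotease induced in injured neurons, had the largest rise of all genes tested. It lay at 2.12 to 8.69 (median 4.46) in uncrushed and at 567 to 1276 (median 829.3) in crushed eyes, and the log2 change was 7.20 ± 0.38 (adjusted p = 6.5e-13). Sprr1a, a small proline-rich protein that promotes axon outgrowth, was listed at 0 in 5 of 7 uncrushed retinas, reached 2.43 in the others and lay at 41.8 to 129 (median 83.8) in crushed eyes; its fitted log2 change of 5.81 ± 0.46 depends on the pseudocount of 1. The transcription factors Sox11, which drives outgrowth programmes in neurons, and Atf3, a stress-induced bZIP factor, followed. Sox11 lay at 18.9 to 48.9 (median 41.4) in uncrushed and at 83.5 to 237 (median 146) in crushed eyes, a change of 2.02 ± 0.21 (adjusted p = 1.5e-07), and Atf3 at 94.4 to 171 (median 123) in uncrushed and at 229.8 to 463 (median 298) in crushed eyes, a change of 1.29 ± 0.17 (adjusted p = 9.7e-06). Both were separated between the groups. The neuropeptide galanin (Gal) rose by 2.25 ± 0.47 (adjusted p = 0.0027), in 6 of 7 mice, and Gap43, a growth cone protein, was at 0.37 ± 0.16 (adjusted p = 0.27). The macrophage elastase gene Mmp12, listed here and with activated microglia, lay at 6.07 to 16.6 (median 12.6) in uncrushed and at 56.3 to 229 (median 129.5) in crushed eyes (3.15 ± 0.31, adjusted p = 5e-08).

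The promoters of 3 of these 10 risen genes held an AP-1 element within 250 bases before the RefSeq start (Sprr1a, Mmp12 and Rab15), against 1 of 16 among the members that did not rise and had a promoter. The letters searched were TGACTCA and TGAGTCA on both strands, and 4.02% of 11869 tested genes with a RefSeq promoter held a match, 6.62% of the higher and 4.52% of the lower genes. AP-1 is the dimer of Fos, Jun and Atf proteins. Sprr1a and Mmp12 are shown because they are the risen members with a match nearest to the start; the sequences are from RefSeq (GRCm38.p6), 5′ to 3′ on the gene's strand, with the matches in capitals.
Sprr1a (chr3:92485882-92486131, minus strand): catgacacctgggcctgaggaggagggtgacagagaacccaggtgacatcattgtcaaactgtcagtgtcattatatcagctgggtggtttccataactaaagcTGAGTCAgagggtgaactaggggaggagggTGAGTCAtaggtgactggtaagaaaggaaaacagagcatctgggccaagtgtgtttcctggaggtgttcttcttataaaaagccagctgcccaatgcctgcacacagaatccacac
Mmp12 (chr9:7347124-7347373, plus strand): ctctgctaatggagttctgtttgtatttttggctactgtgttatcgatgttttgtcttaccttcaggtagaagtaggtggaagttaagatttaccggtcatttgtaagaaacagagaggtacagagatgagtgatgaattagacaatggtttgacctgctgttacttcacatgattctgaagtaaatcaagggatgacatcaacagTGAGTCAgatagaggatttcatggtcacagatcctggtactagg
The 2 matches in Sprr1a began 146 and 116 bases before the start, and the match in Mmp12 began 44 bases before it. A match describes letters and not binding.

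Stress transcription factors rose as well: 10 of 24 tested were higher and 0 lower (14 and 1 at an unadjusted p under 0.05), with a median of 0.50. Without the 3 libraries that stood apart, 7 were higher. Cebpd, a C/EBP factor of acute-phase responses, lay at 87.1 to 174 (median 123) in uncrushed and at 282 to 554 (median 351) in crushed eyes, with no overlap and a log2 change of 1.61 ± 0.18 (adjusted p = 6.7e-07). Junb, an AP-1 subunit, changed by 0.73 ± 0.12 (adjusted p = 0.00016), whereas Jun was at 0.18 ± 0.10 (adjusted p = 0.41). Of 24 genes of the integrated stress response, the pathway that couples stress to translation through ATF4, 4 rose, led by Nupr1 (1.12 ± 0.15) and Cebpb (0.68 ± 0.14), and 0 fell (8 and 1 at an unadjusted p under 0.05); 3 rose without the 3 libraries that stood apart. Ddit3 (CHOP), a mediator of stress-linked cell death, was at 0.04 ± 0.07 (adjusted p = 0.85).

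Among 28 tested genes of the p53 pathway, the BCL2 family and the caspases, 3 rose and 1 fell, with a median of 0.18. Cdkn1a (p21), a cell cycle inhibitor and p53 target, changed by 1.04 ± 0.26, and the BH3-only gene Hrk by 1.37 ± 0.37. The anti-apoptotic Bcl2 fell by 0.38 on the log2 scale. Without the 3 libraries that stood apart, none of the 3 rises passed the test and 1 fall did.

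Genes of reactive Müller glia, the radial support cells of the retina, rose in the injured eye. Of 36 tested, 19 rose and 0 fell (26 and 2 at an unadjusted p under 0.05), with a median of 0.67, and 16 rose without the 3 libraries that stood apart. Gfap (chr11:102887336-102900912), the intermediate filament of reactive glia, lay at 173 to 362 (median 266) in uncrushed and at 908 to 1356 (median 1108) in crushed eyes, a log2 change of 2.04 ± 0.19 (adjusted p = 1.5e-08). Fgf2, a fibroblast growth factor, lay at 524 to 865 (median 630.3) in uncrushed and at 2073 to 2739 (median 2322) in crushed eyes (1.84 ± 0.11, adjusted p = 1.7e-11). Edn2 (endothelin 2), a peptide induced in stressed retina, lay at 64.0 to 324 (median 149) in uncrushed and at 937 to 2315 (median 1586) in crushed eyes, with uncrushed Female.C the highest of its group. Its log2 change was 3.28 ± 0.27 (adjusted p = 1.3e-09), and none of these 3 genes had overlapping groups. Bulk retina does not show which cells made the transcripts of this list.

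Genes of the cytokine route through gp130 and STAT3 were among the risen members. Stat3, the transcription factor itself, moved within a narrow band, 1002 to 1319 (median 1143) in uncrushed and 2394 to 2987 (median 2687) in crushed eyes, with a log2 change of 1.22 ± 0.08 (adjusted p = 1.7e-11) and within-mouse changes of 1.07 to 1.42. Osmr, a receptor chain for oncostatin M, changed by 1.33 ± 0.17, the shared chain Il6st by 0.62 ± 0.08, the ligand Cntf by 0.96 ± 0.15 and the feedback inhibitor Socs3 by 1.19 ± 0.32. Serpina3n, a serine protease inhibitor of reactive astrocytes, lay at 39.5 to 108 (median 45.1) in uncrushed and at 181 to 523 (median 365) in crushed eyes, a change of 2.45 ± 0.41 (adjusted p = 0.00019), and Bcl3, an IkB-family coactivator, changed by 2.61 ± 0.50 with overlapping groups. Lcn2 (lipocalin 2), another reactive astrocyte gene, did not pass: it lay at 52.7 to 155 (median 100.4) and 80.0 to 119.7 (median 102), a change of 0.02 ± 0.23 (adjusted p = 0.98).

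Of 29 homeostatic Müller genes tested, 6 rose (5 without the 3 libraries that stood apart) and 1 fell, with a median of 0.21. The lipid carrier and complement regulator clusterin (Clu) lay at 5639 to 7428 (median 5874) in uncrushed and at 8793 to 17085 (median 13616) in crushed eyes (1.005 ± 0.12, adjusted p = 9.6e-07), and apolipoprotein E (Apoe) changed by 0.76 ± 0.13. The tetraspanin Cd9 changed by 0.95 ± 0.10 and Crym, a thyroid hormone binding protein, by 0.59 ± 0.09. Glutamine synthetase (Glul), which clears synaptic glutamate, fell by 0.36 on the log2 scale (adjusted p = 0.0053), and Rlbp1, the retinoid carrier, was at -0.15 ± 0.07 (adjusted p = 0.35). Among 14 retinal astrocyte genes 4 rose (Gfap, Cd9, S100a6 and Aldh1l1) and Fbxo2 fell. For S100a6 the uncrushed eye with lens transcripts, Male.A, was the highest of its group at 143. Of 14 genes of neuroinflammatory reactive astrocytes, 7 rose, and the leading ones were the MHC class I gene H2-D1 (1.07 ± 0.08), Lgals3bp (1.75 ± 0.21), the C1 inhibitor Serping1 (1.59 ± 0.20) and the GTPase gene Gbp2 (1.24 ± 0.17). Many of these are also made by other retinal cells, and the lists share members.

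**Figure D3:**
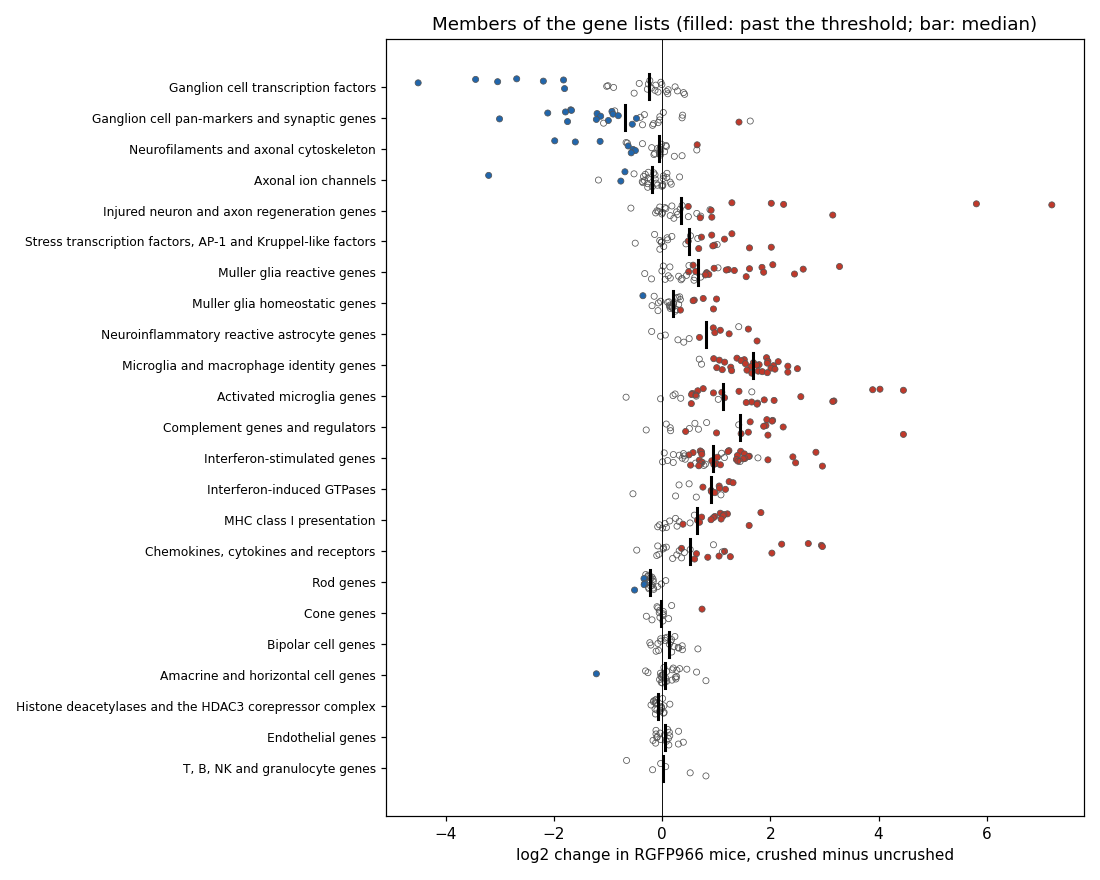
Log2 change in RGFP966 mice (x) of every tested member of 23 gene lists (y), 1 circle per gene; filled circles passed the test (red higher, blue lower), open circles did not, and the bar is the list median. Microglia identity genes lie to the right of 0 throughout with a median of 1.67, and the ganglion cell lists extend to the left.

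Identity genes of microglia, the resident macrophages of the retina, rose nearly throughout. Of 32 tested, 30 rose and 0 fell, and all 32 were higher at an unadjusted p under 0.05; the list median was 1.67. Their summed level ran from 2996 to 3975 in uncrushed and from 6984 to 12900 in crushed eyes. Mpeg1 (chr19:12460779-12465283), a pore-forming protein of macrophages, was nearly constant in uncrushed eyes at 134 to 162 (median 146) and lay at 457 to 1090 (median 776) in crushed eyes, a log2 change of 2.32 ± 0.17 (adjusted p = 3.5e-10). Cathepsin S (Ctss), a lysosomal protease, lay at 252 to 420.3 (median 332) in uncrushed and at 938 to 2043 (median 1423) in crushed eyes (2.06 ± 0.15, adjusted p = 3.5e-10). Sall1, a transcription factor that sets resident microglia apart from other macrophages in mice, changed by 1.75 ± 0.16, and Olfml3 by 1.79 ± 0.14. The 2 members that missed the threshold were the homeostatic genes Tmem119 (0.69 ± 0.24, adjusted p = 0.12) and P2ry13 (0.73 ± 0.26, adjusted p = 0.13); P2ry12, a purine receptor of homeostatic microglia, rose by 0.95 ± 0.19.

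Genes of activated, phagocytic microglia rose in 22 of 30 cases and fell in 0 (27 and 1 at an unadjusted p under 0.05), with a median of 1.13. Clec7a (dectin 1) lay at 2.89 to 17.1 (median 5.57) in uncrushed and at 78.1 to 169 (median 126) in crushed eyes, a log2 change of 3.89 ± 0.38 (adjusted p = 4.9e-08). The cystatin gene Cst7 lay at 0 to 5.11 (median 1.17) and 21.9 to 39.4 (median 29.9) (4.03 ± 0.39, adjusted p = 4.6e-08), and Itgax (CD11c) at 0 to 4.72 (median 3.20) and 27.7 to 164 (median 82.9) (4.46 ± 0.51, adjusted p = 7.4e-07). For all 3 genes the lowest crushed eye was above the highest uncrushed eye. Lyz2 (lysozyme) changed by 2.56 ± 0.31 and Lag3 by 1.65 ± 0.16. Both are also expressed by immune cells from blood. Of 23 markers of T, B and NK cells and granulocytes, 17 were below the mean of 10 required for testing, and 0 of the other 6 passed (1 was lower at an unadjusted p under 0.05). Their summed level was 161 to 233 in uncrushed and 133 to 251 in crushed eyes. Of 6 oligodendrocyte and Schwann cell genes tested, 0 passed (2 higher at an unadjusted p under 0.05).

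The complement list had 13 rises and 0 falls among 22 tested (15 higher at an unadjusted p under 0.05), with a median of 1.44. The 3 chains of C1q, the recognition unit of the classical pathway, moved together. C1qa lay at 115 to 217 (median 164) in uncrushed and at 398 to 892 (median 624) in crushed eyes, C1qb at 119 to 206 (median 162) in uncrushed and at 427 to 885 (median 680.0) in crushed eyes and C1qc at 115 to 171 (median 122) in uncrushed and at 356 to 754 (median 534) in crushed eyes. Their log2 changes were 1.94 ± 0.14, 2.04 ± 0.16 and 2.03 ± 0.15, all without overlap (adjusted p = 3.2e-10, 7.3e-10 and 2.5e-10). C4b, the next component of the pathway, changed by 1.88 ± 0.17. C3, the central component, was spread widely, 6.87 to 80.1 (median 22.1) in uncrushed and 18.0 to 153 (median 51.4) in crushed eyes, and did not pass (1.42 ± 0.47, adjusted p = 0.09); uncrushed Male.B was the highest of its group. Its change was 3.12 ± 0.58 in the 3 females and 0.14 ± 0.50 in the 4 males (unadjusted p = 0.00067 for the difference in limma, adjusted p = 1).

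Interferon-stimulated genes rose in 31 of 48 cases and fell in 0 (41 and 0 at an unadjusted p under 0.05), with a median of 0.94; without the 3 libraries that stood apart 27 rose. These genes encode antiviral effectors and sensors that are switched on by interferon. Oasl2, an oligoadenylate synthetase-like protein, lay at 167 to 407 (median 183) in uncrushed and at 494 to 836 (median 652) in crushed eyes (1.499 ± 0.16, adjusted p = 1.9e-07). Ifit3, an antiviral protein of the IFIT family, lay at 134 to 248 (median 160.4) in uncrushed and at 351 to 675 (median 457) in crushed eyes (1.45 ± 0.18, adjusted p = 3.3e-06). Both were separated between the groups; reads of Ifit3 and its near copy Ifit3b may be split between them by the authors' counting. Bst2 (tetherin) changed by 1.61 ± 0.21, Rtp4 by 1.59 ± 0.20 and Parp14 by 0.997 ± 0.13. Among the interferon-induced GTPases 9 of 15 rose (8 without the 3 libraries that stood apart) and 0 fell (10 and 0 at an unadjusted p under 0.05), with Gbp6 at 1.05 ± 0.11, Igtp at 1.17 ± 0.18 and Gbp9 at 1.06 ± 0.16.

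The MHC class I presentation list had 14 rises and 0 falls among 25 tested (15 higher at an unadjusted p under 0.05), with a median of 0.65; without the 3 libraries that stood apart, 9 rose. Beta-2 microglobulin (B2m, chr2:122147686-122153083), the light chain of all class I molecules, lay at 337 to 512 (median 419) in uncrushed and 1222 to 1716 (median 1477) in crushed eyes. The log2 change was 1.82 ± 0.12 (adjusted p = 1.7e-11), and the within-mouse changes ran from 1.53 to 2.20. The heavy chain genes H2-D1 and H2-K1 changed by 1.07 ± 0.08 and 1.21 ± 0.15; H2-Q4 changed by 1.14 ± 0.14 and shares sequence with other H2-Q genes. Class II presentation had 2 rises and 0 falls among 9 tested (6 and 0 at an unadjusted p under 0.05), with a median of 1.08. The 2 were Ctss and the invariant chain Cd74 (1.89 ± 0.52, adjusted p = 0.028), the latter in 6 of 7 mice. Cd74 lost its call in 5 of 17 alternatives.

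A double GAAA element, the core of the interferon response element, was searched in the same 250-base promoters as 2 copies of GAAA separated by 2 bases, on both strands. It occurred in 3.2% of the 11869 promoters of genes tested, in 8.33% of those of higher genes and in 3.87% of those of lower genes. Of the risen interferon-stimulated genes with a RefSeq promoter, 10 of 22 held it, and so did 6 of 6 risen GTPases and 3 of 12 risen MHC class I genes. Members of the same 3 lists that did not rise held it in 4 of 13, 3 of 4 and 0 of 8 cases. The 4 sequences shown are those of the risen members with a match and the smallest p whose window overlaps an annotated exon of the gene by at most 30 bases, from RefSeq (GRCm38.p6), 5′ to 3′ on the gene's strand, with the element in capitals; on the opposite strand it reads TTTC, 2 bases, TTTC.
B2m (chr2:122147437-122147686, plus strand): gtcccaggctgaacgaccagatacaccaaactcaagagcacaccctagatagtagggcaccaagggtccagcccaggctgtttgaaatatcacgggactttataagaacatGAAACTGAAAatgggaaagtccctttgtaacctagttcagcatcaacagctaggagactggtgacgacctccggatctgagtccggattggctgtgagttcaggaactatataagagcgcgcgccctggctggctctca
Ifit3 (chr19:34583279-34583528, plus strand): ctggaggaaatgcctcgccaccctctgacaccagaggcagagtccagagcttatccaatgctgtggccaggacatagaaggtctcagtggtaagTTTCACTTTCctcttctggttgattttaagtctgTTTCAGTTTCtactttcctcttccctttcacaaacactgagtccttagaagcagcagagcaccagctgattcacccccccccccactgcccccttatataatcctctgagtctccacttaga
Bst2 (chr8:71537473-71537722, minus strand): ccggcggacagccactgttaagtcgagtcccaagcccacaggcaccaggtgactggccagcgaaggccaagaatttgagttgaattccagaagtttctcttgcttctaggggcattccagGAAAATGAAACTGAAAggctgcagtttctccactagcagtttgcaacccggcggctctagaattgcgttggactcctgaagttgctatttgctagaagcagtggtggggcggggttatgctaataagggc
H2-T22 (chr17:36042743-36042992, minus strand): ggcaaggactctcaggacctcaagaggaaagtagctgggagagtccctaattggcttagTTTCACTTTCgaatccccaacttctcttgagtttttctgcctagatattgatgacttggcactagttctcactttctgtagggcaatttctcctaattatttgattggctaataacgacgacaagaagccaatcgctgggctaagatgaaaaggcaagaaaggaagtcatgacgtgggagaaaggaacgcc
The element began 139 bases before the start in B2m and 191 bases before it in H2-T22, a non-classical MHC class I gene. Ifit3 held 2 copies, at 156 and 122 bases, and in Bst2 2 copies at 130 and 124 bases overlapped.

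Chemokine, cytokine and receptor genes rose in 12 of 27 cases and fell in 0 (15 and 0 at an unadjusted p under 0.05). The macrophage chemokine Ccl6 lay at 7.02 to 16.6 (median 10.3) in uncrushed and at 32.3 to 90.0 (median 44.6) in crushed eyes (2.21 ± 0.28, adjusted p = 3.8e-06), and Ccl12 at 0 to 6.22 (median 3.34) in uncrushed and at 13.4 to 35.3 (median 27.6) in crushed eyes (2.94 ± 0.41). Csf1, the growth factor of microglia, changed by 1.15 ± 0.15, and its receptor Csf1r, counted with the identity genes, by 1.52 ± 0.18. The interferon-induced chemokine Cxcl10 lay at 0 to 6.11 (median 1.21) in uncrushed and at 6.58 to 36.8 (median 17.9) in crushed eyes (2.96 ± 0.52, adjusted p = 0.00037). Of 40 neuropeptide and growth factor genes, 3 rose and 2 fell. Crh, corticotropin-releasing hormone, lay at 0 to 13.7 (median 3.54) in uncrushed and at 11.9 to 34.9 (median 24.1) in crushed eyes (2.57 ± 0.45, adjusted p = 0.00038), and the neurotrophin 3 receptor Ntrk3 fell by 0.62 on the log2 scale.

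Of 24 rod genes tested, 4 fell (16.7%, against 1.33% of all genes tested) and 0 rose, with a median of -0.23; 19 were lower and 0 higher at an unadjusted p under 0.05. The log2 changes were small: Pdc (phosducin) changed by -0.51 ± 0.12, Pde6g by -0.34 ± 0.08, Reep6 by -0.33 ± 0.08 and the rod factor Nrl by -0.32 ± 0.09. Nrl lost its call in 10 of 17 alternatives, among them the fit with the mouse as a replicate block (adjusted p = 0.069). Without the 3 libraries that stood apart 1 rod gene passed, and quantile normalization moved the rod median to -0.05. Among 14 cone genes 1 rose and 0 fell (1 and 2 at an unadjusted p under 0.05). That gene was Gnb3, a transducin beta subunit of cones and bipolar cells, which lay at 6103 to 7453 (median 6316) in uncrushed and at 9561 to 13519 (median 11296) in crushed eyes with no overlap (0.74 ± 0.08, adjusted p = 5e-07). Of 21 bipolar cell genes 0 passed in limma, and 0 had an unadjusted p under 0.05. Of 28 amacrine and horizontal cell genes 1 fell, Calb2 (calretinin), which ganglion cells also express; it changed by -1.22 ± 0.23 (adjusted p = 0.00083), with crushed Male.C the highest of its group at 1148.

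Among 27 cholesterol synthesis and uptake genes 4 fell (14.8%, against 1.33% of all genes tested) and 0 rose (14 and 2 at an unadjusted p under 0.05). Of these, Fdps fell by 0.41, Fdft1 by 0.36 and Hmgcs1 by 0.34 on the log2 scale. With libraries rescaled to the same total, 1 fell and 1 rose. The respiratory chain subunit Ndufa4 fell by 0.37 and was the only call among 31 nuclear oxidative phosphorylation genes, and hexokinase 2 (Hk2) fell by 0.41 and was the only call among 22 glycolysis genes, shares of 3.23% and 4.55% beside 4.67% called over all genes. Hk2 lost its call in 8 of 17 alternatives, among them rescaling to the same total (limma, adjusted p = 0.066). Of 13 mitochondrially encoded genes 0 passed in limma (2 lower at an unadjusted p under 0.05). Among 38 matrix and proteinase genes 6 rose and 1 fell. The matricellular protein gene Sparc lay at 2302 to 3061 (median 2684) in uncrushed and at 3814 to 5524 (median 5147) in crushed eyes (0.85 ± 0.07, adjusted p = 4.2e-09) and Adamts1 changed by 0.94 ± 0.15; without the 3 libraries that stood apart, 3 of this list rose.

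The target of the drug and its partners did not pass the test for crush. Of 20 histone deacetylase and corepressor genes 0 was called in limma (2 were lower at an unadjusted p under 0.05), with a median of -0.07. Hdac3 lay at 1042 to 1688 (median 1599) in uncrushed and at 945 to 1579 (median 1481) in crushed eyes. The groups overlapped, and the log2 change was -0.13 ± 0.10 (adjusted p = 0.61). Its corepressor Ncor1 was at -0.01 ± 0.07. These are transcript levels, and enzyme activity was not measured in these files.

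Lists of neighbouring tissues served as a check of what the dissected retina carried. None of the lens (17 tested), pigment epithelium (12), cornea, iris and ciliary body (5), endothelial (18), pericyte and smooth muscle (12) and muscle-type (10) genes passed in limma; at an unadjusted p under 0.05 there were 0, 1, 2, 2, 1 and 1. The lens sum was 693 to 3587 in crushed eyes. With uncrushed Male.A, uncrushed Male.B and crushed Male.C left out, the lens list median moved from 0.43 to 1.85 and 1 member passed. The part of lens RNA in the other results was not tested.

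The same contrast in vehicle mice called 842 genes (5.34% of those tested), 582 higher (3.69%) and 260 lower (1.65%). Of the RGFP966 calls, 540 were also called in vehicle mice, which is 73.3% of the 737 and 64.1% of the 842, and all 540 had the same direction. The signs matched for 732 of the 737, and 383 of the 737 were farther from 0 in RGFP966 mice than in vehicle mice. Because the 737 were selected in RGFP966 mice, that count favours larger changes there. The difference between the 2 crush effects, tested as the drug by crush interaction, passed for no gene (0% of 15773, limma, lowest adjusted p = 1), with 327 genes (2.07%) at an unadjusted p under 0.05, of which 42 were among the 737. The median SE of that difference over the 737 was 0.23 on the log2 scale. Differences well above that size did not pass either, such as that of Gbp2 at -0.84 ± 0.25, so they could be missed here.

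Side by side, the change of Ecel1 was 7.20 in RGFP966 mice and 7.33 ± 0.41 in vehicle mice, that of Nefl -1.99 and -1.91 ± 0.14, that of Rbpms -1.69 and -1.73 ± 0.17, and that of B2m 1.82 and 1.94 ± 0.12. The differences themselves were -0.13 ± 0.56, -0.08 ± 0.20, 0.04 ± 0.24 and -0.11 ± 0.17. The smallest unadjusted interaction p among the 737 belonged to Gbp2, whose crush effect was 1.24 in RGFP966 mice and 2.08 ± 0.18 in vehicle mice (difference -0.84 ± 0.25, unadjusted p = 0.002). Next was Bach2, a transcriptional repressor of the AP-1 family, at 0.94 and -0.41 ± 0.29 (difference 1.34 ± 0.40, unadjusted p = 0.0023). These genes were named after their values were seen, and neither passed the adjustment. By list, the median of the interferon-stimulated genes was 0.94 in RGFP966 mice and 1.25 in vehicle mice, that of the GTPases 0.91 and 1.26, and that of MHC class I 0.65 and 1.03. Microglia identity genes had medians of 1.67 and 1.69, pan-ganglion-cell genes -0.68 and -0.52, and rod genes -0.23 and -0.28. The difference between treatments was not tested for lists.

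**Figure D4:**
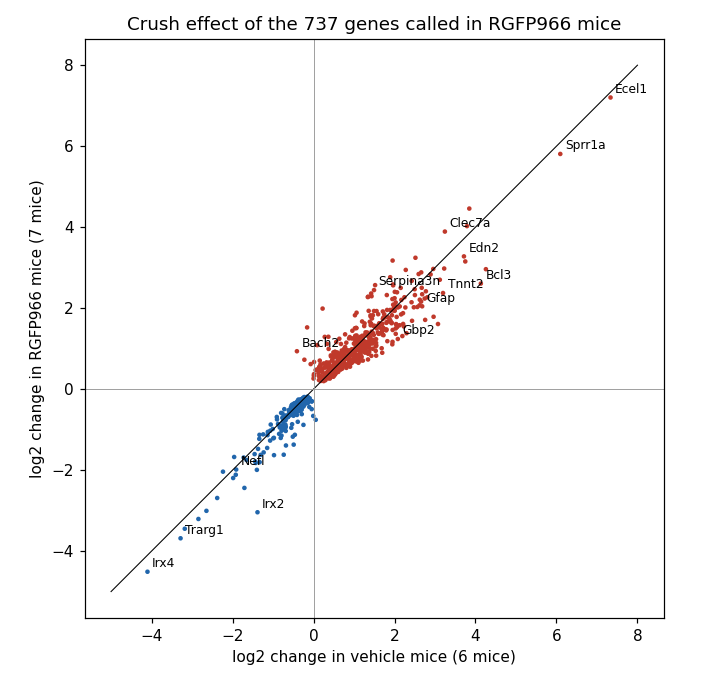
Log2 crush effect in vehicle mice (x, 6 mice) against that in RGFP966 mice (y, 7 mice) for the 737 genes called in RGFP966 mice; the line marks equal effects. The genes were selected on the y axis, and 732 of 737 have the same sign on both; Gbp2 (1.24 against 2.08) lies below the line and Irx2 (-3.04 against -1.38) also below it.

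In the 3 females and the 4 males, fitted as separate groups, all 737 genes had the same sign of change, which is largely set by calling them from the same mice; 59.1% of all genes tested had the same sign in both sexes. The sex by crush interaction within RGFP966 mice passed for no gene (0% of 15773, limma, lowest adjusted p = 1), with 630 genes (3.99%) at an unadjusted p under 0.05. In the heat map of within-mouse changes, 76 named genes that were called with a fitted change of more than 1 on the log2 scale give 4 gene-by-mouse cells of the opposite sign. Many of them were named for having 1 direction in all 7 mice, so this agreement is largely fixed by the choice.

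**Figure D5:**
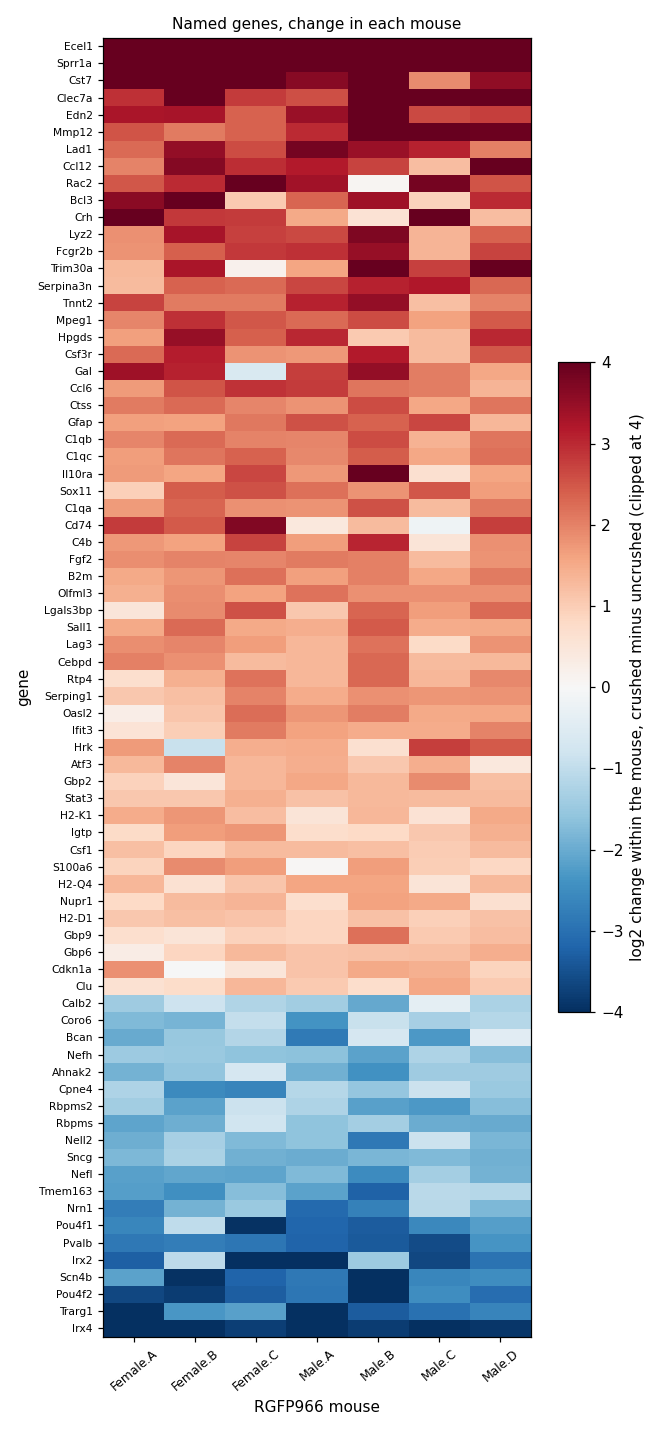
Within-mouse log2 change, crushed minus uncrushed (colour, clipped at 4), of 76 named and called genes (rows, 56 higher and 20 lower, ordered by the fitted change) in the 7 RGFP966 mice (columns). Rows keep their colour across the mice in all but 4 cells, which the choice of genes by their direction in these mice largely sets.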

How the data were processed

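Per the labels' protocols, polyadenylated RNA of each retina was made into NEBNext libraries. Per the submitters' processing notes, kallisto 0.46.1 quantified the reads on mm10 and DESeq2 normalized them; the DESeq2 version, strand handling and batches are not stated. The deposited values are a signal, estimated counts divided by a size factor per library by the authors. In RGFP966 libraries 37.7 to 62.7% of low values lay within 0.05 of a whole multiple of 1 read, so reads were not recovered and no count test was run. Without strand, overlapping and antisense genes cannot be told apart, and near-identical genes may share reads.

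The table held 35999 rows. Symbols turned into dates (26 rows, 0.115% of the total) and 2 columns with one repeated name and no partner were not used. Values were analysed as log2(value + 1), which understates the change of low genes, for genes with a mean of at least 10. limma 3.58.1 (R 4.3.3) fitted 4 treatment-by-crush groups plus sex to 26 libraries with a trended prior; tests were two-sided with Benjamini-Hochberg adjustment over 15773 genes. Sex by crush came from 8 groups. The fit was tested on simulated data with the same spread setting for every gene and no difference between mice or sexes. That simulation does not cover libraries that stand apart. The mice are separate animals and each group has 1 retina per mouse. Eyes pair by mouse, through the titles and the design; the correlation of their deviations from group means ran from -0.20 to 0.22 in RGFP966 mice, and in 1 of 7 (Male.C) the own other eye was the best match (for Male.B another mouse reached 0.53).

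Members and lists were chosen with earlier results of these data known. Named genes were the 15 largest rises and falls with a mean of at least 50 and one direction in all 7 mice, up to 4 called members per list by p, and 10 fixed genes. Thy1, Spp1, Nefm, Itgax, Apoe, Glul, Osmr, Il6st, Cntf, Socs3, Csf1r, P2ry12, Cxcl10, Bst2 and the uncalled members Tbr1, Eomes, Jun, Ddit3, Gap43, Tmem119, P2ry13, Grm6 and Ncor1 were added after their values were seen. A few genes falling under these criteria are not given here. Lists are described by counts and medians only. Positions are from GENCODE vM21 (GRCm38), which located 15765 of the genes tested. Alternatives covered pairing, libraries, pseudocount, filter, scaling, moderation and each mouse.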

Additional observations from a re-analysis of the deposited data

Results flagged for a closer look

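Among the named genes, 234 groups of 7 retinas were examined for 1 retina far from the other 6, and 20 were found. For independent groups with a normal spread, chance gives about 1 in 20 groups. These groups share the same retinas and hold genes chosen in them, so that rate is only a rough guide. Crushed Male.C, which also stood apart on the first component, gave 5 of them: Calb2 at 1148 (next 677), Nell2 at 169.9 (next 94.6), Hmgcs1 at 1398 (next 1087) and Hrk at 88.17 (next 61.9) were the highest of their group, and Ccl12 at 13.41 (next 27.1) the lowest. Crushed Female.B gave 3, with Gbp2 at 133.1 and Slc7a5 at 1096 lowest and Fosb at 202.7 highest. Crushed Female.C was highest for Lgals3bp at 998.1 and Rtp4 at 106. The other crushed eyes far above their group were Lad1 at 315.9 in Male.A, Pvalb at 19.21 in Male.D and H2-Q4 at 533.7 in Female.A.

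Of the uncrushed eyes, Female.C was highest for Edn2 at 323.7 and for the interferon-stimulated Trim30a at 87.15, where the other 6 lay at or below 28.0. Female.B was highest for Hrk at 87.96, Female.A for Cebpb at 71.86, Male.B for C3 at 80.13, Male.C for Cst7 at 5.114, and Male.A, the retina with lens transcripts, for S100a6 at 143.1.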

How the results depend on the processing

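The RGFP966 crush effect gave 544 to 738 calls under changes of pairing, pseudocount, filter, moderation, libraries and single mice, of which 506 to 733 were among the 737; leave-one-mouse-out fits gave 544 (without Female.C) to 697 (without Female.B). With the mouse as a replicate block 687 genes were called, 634 of them shared with the 737; in the RGFP966 libraries alone the paired fit called 546. Beside calls named in the report, the paired fit over all libraries ended those of Phgdh (adjusted p = 0.059) and Fosb (0.058). Rescaling to 1 common total shifted the all-gene median from -0.009 to 0.064 in RGFP966 mice and from -0.011 to 0.104 in vehicle mice; it left 129 lower genes in RGFP966 mice, and 978 higher and 97 lower genes in vehicle mice. Both interactions stayed at 0 calls in every alternative run.

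Of the 112 named genes that were called, 91 stayed called in every alternative that tested them and 21 lost the call in at least 1. There were 17 alternatives, or 16 for genes removed by the filter at a mean of 50. None of the 112 changed direction. The losses lay near the threshold, as for Plat (0.083 without the 3 libraries that stood apart). C3 gained the call in 3 alternatives. Low genes such as Irx4, Sprr1a and Cst7 rest on few reads per retina, and their fold changes depend on the pseudocount.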

Other observations

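Most of the calls lay outside the gene lists: 507 of the 737, of which 347 were higher and 160 lower after crush. The genes below were picked, after their values were seen, from the 25 largest rises and 25 largest falls among these with a mean of at least 50 and one direction in all 7 mice. Lad1 (ladinin), an epithelial basement membrane protein, lay at 18.9 to 48.3 (median 23.6) in uncrushed and at 166 to 316 (median 221) in crushed eyes, a log2 change of 2.97 ± 0.20 (adjusted p = 3.9e-11). Tnnt2, the cardiac troponin T gene, lay at 36.6 to 73.3 (median 43.9) in uncrushed and at 101 to 434 (median 309) in crushed eyes (2.37 ± 0.25, adjusted p = 1.5e-07), while 0 of 10 muscle-type genes passed in limma (1 at an unadjusted p under 0.05). The actin cross-linker Flnc changed by 2.03 ± 0.26 and the stress gene Gadd45b by 1.64 ± 0.15. Several others are blood cell and macrophage genes: Rac2, a small GTPase of leukocytes (2.76 ± 0.44), Hpgds, a prostaglandin D synthase (2.27 ± 0.33), Csf3r, the receptor of granulocyte colony-stimulating factor (2.27 ± 0.28), Pld4 (2.02 ± 0.25) and the kinase Jak3 (1.73 ± 0.17). The immunoglobulin heavy chain gene Ighm lay at 20.8 to 35.7 (median 25.9) in uncrushed and at 64.2 to 106 (median 92.0) in crushed eyes (1.62 ± 0.18, adjusted p = 5e-07), whereas the B cell gene Ms4a1 was at -0.18 ± 0.28 (adjusted p = 0.85).

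The falls outside the lists were led by Trarg1, a regulator of glucose transporter traffic known from fat cells, which lay at 73.3 to 241 (median 168) in uncrushed and at 0 to 33.1 (median 20.5) in crushed eyes (-3.68 ± 0.54, adjusted p = 2.8e-05), 1 crushed eye being listed at 0. Tmem163, a zinc transporter, changed by -1.99 ± 0.32, Bcan (brevican), a proteoglycan of perineuronal matrix, by -1.56 ± 0.24, Coro6, a coronin, by -1.48 ± 0.20, and the serotonin receptor gene Htr1b by -1.23 ± 0.28. Neuronal genes Scrt1 (-0.92 ± 0.12), Dlgap3 (-0.90 ± 0.12) and Rbfox3, which encodes NeuN (-0.87 ± 0.17), also fell. Kif4, a kinesin, changed by -0.94 ± 0.20.

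Nlrc5, the activator of MHC class I transcription, was chosen after its values were seen. Its crush effect was 0.20 in the 3 females and 2.66 in the 4 males, and the difference did not pass in limma after adjustment.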
